A study of Mus musculus with 6 samples.

Results

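The genes described here are 8 genes of cholesterol synthesis, Hmgcs1, Idi1, Fdps, Fdft1, Sqle, Lss, Cyp51 and Insig1, chosen by name from the 46983 genes of the deposited table. All 8 were found once in it, and all 8 passed the filter on low values. RNA was sequenced from aortic valves of wild type C57BL/6J mice on regular chow at postnatal day 2 (PND2) and at 4 months. Each age had 3 libraries, and each library was made from the pooled valves of 5 to 6 mice, so the spread between libraries is a spread between pools. Levels are given in RPKM, the reads on a gene scaled to its exon length and to the size of the library, and positions are those of the mouse genome build mm10.

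Animal cells make cholesterol from acetyl-CoA in a chain of enzymes. Hmgcs1 makes HMG-CoA, the precursor of mevalonate. From isopentenyl diphosphate, which other enzymes make from mevalonate, Idi1 and Fdps build farnesyl diphosphate. Fdft1 joins farnesyl units into squalene, Sqle and Lss oxidise and close squalene into lanosterol, and Cyp51 takes the first methyl group off lanosterol. Insig1 is not an enzyme of the chain. It is a membrane protein of the endoplasmic reticulum that holds back the transcription factors of the SREBP family when sterols are plentiful. The synthesis genes and Insig1 are textbook targets of SREBP2, the product of Srebf2.

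The library totals ran from 23810507 to 38994657 reads, with 5.44 to 9.60% of gene reads on mitochondrial genes. Markers of several cell types differed between the ages. The summed RPKM of 8 macrophage markers was 320 to 368 at PND2 and 1042 to 1132 at 4 months, and 7 of the 8 were called higher. All 8 smooth muscle markers were higher, all 10 proliferation markers and 7 of 8 endothelial markers were lower, and 3 of 8 cardiomyocyte markers were lower, with sums of 13946 to 16179 RPKM at PND2 and 5742 to 8778 RPKM at 4 months. Of 7 Schwann cell markers tested 2 were higher, and none of the 5 erythroid markers tested passed in limma. Of 10 adipocyte markers 9 were higher, with Cidec, Lep and Retn at 0 in every PND2 library, and the sum in the second 4-month library was 1667 against 524 and 497 in the others. Of 8 valve interstitial markers 1 was higher and 4 were lower, and Vim, Postn, Dcn, Col1a1 and Col3a1 were at 432 RPKM or more in every library. In pooled tissue, fewer cells of a type and less RNA per cell cannot be told apart, and the part of these shifts in the results that follow was not tested.

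Between the ages the cholesterol genes divided into 3 that rose and 5 that did not pass the test. Insig1, Fdft1 and Idi1 were higher at 4 months and no gene of the 8 was lower, at an adjusted p under 0.05 in limma over 25903 genes. The remaining genes were Hmgcs1, Fdps, Sqle, Lss and Cyp51. At an unadjusted p under 0.05 the count of lower genes was also 0, in limma on RPKM, where it was 27.3% of all genes, and with voom on recovered reads. Among all genes tested 14.7% were called higher and 21.1% lower. The median log2 fold change (4 months minus PND2, on log2(RPKM + 0.1)) of the 8 genes was 0.10, against -0.14 over all genes tested. The libraries of the ages did not overlap for 3 of the 8 genes, against 50.0% of all genes tested. An exact permutation test of 3 against 3 libraries cannot go below 0.1, the value it gave for Insig1, Fdft1 and Idi1.

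**Figure D1:**
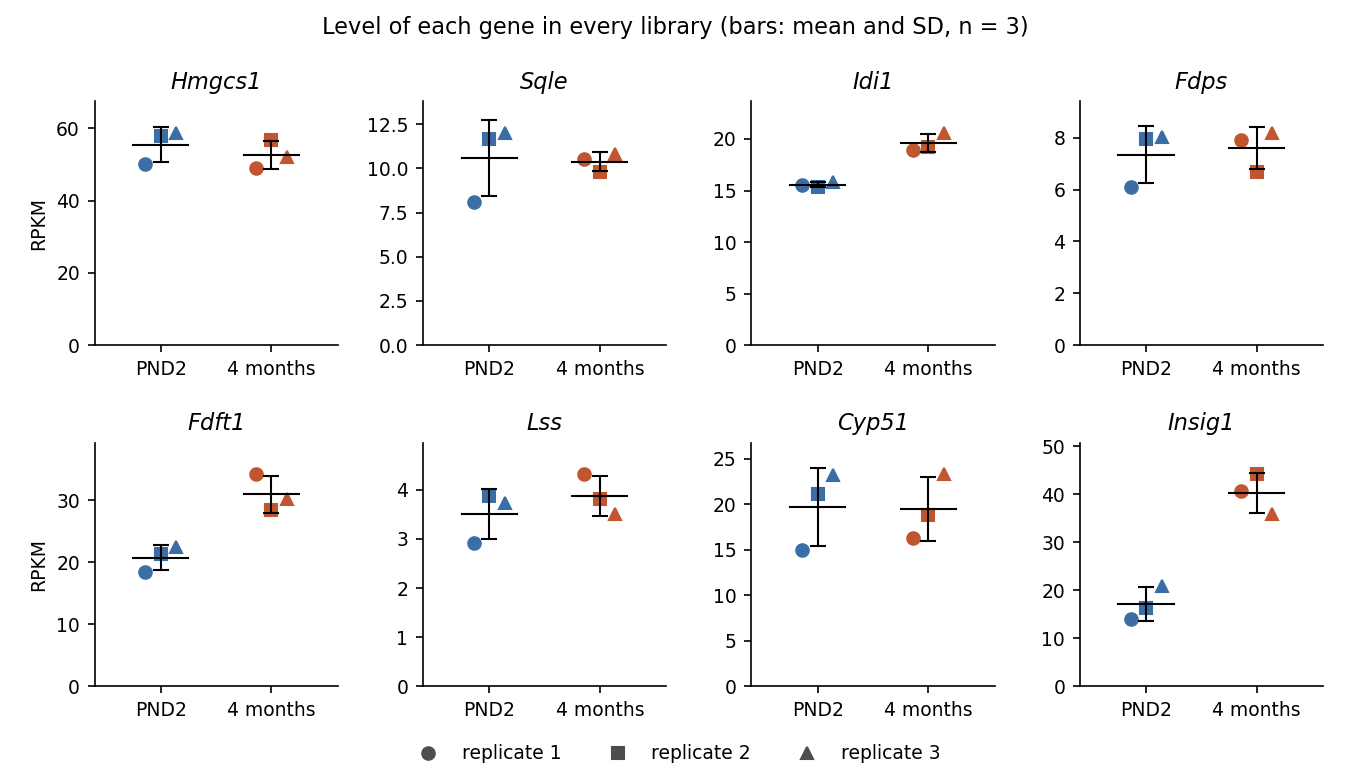
RPKM (vertical axis, from 0) of each of the 8 genes in the 3 PND2 and 3 4-month libraries (horizontal axis), with points shaped by replicate and bars at the mean ± SD. The ages are apart for Idi1, Fdft1 and Insig1 and overlap for the other genes, and the first PND2 library is the lowest of its age in 7 of the 8 panels.

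Hmgcs1 (ENSMUSG00000093930, chr13:119690462-119708086, + strand), the gene of the enzyme that makes HMG-CoA, was the highest of the 8 at both ages. It was at 50.0, 57.8 and 58.6 RPKM in the 3 PND2 libraries and at 49.0, 56.8 and 52.1 RPKM at 4 months. The values of the ages overlap, with a 4-month library lowest and a PND2 library highest. Its log2 fold change was -0.07 (SE 0.10; 95% interval -0.32 to 0.17; limma adjusted p = 0.617).

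The genes of later steps were lower in level. Idi1 (ENSMUSG00000058258, chr13:8885501-8892451, + strand) encodes the isomerase that turns isopentenyl diphosphate into its reactive isomer. It was at 15.5, 15.3 and 15.8 RPKM at PND2 and at 19.0, 19.3 and 20.6 RPKM at 4 months, so that every 4-month library was above every PND2 library. The log2 fold change was 0.33 (SE 0.09; limma adjusted p = 0.0289). This call was close to the threshold. It was lost when any library other than the first of PND2 was left out, with adjusted p from 0.0584 to 0.101.

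Fdps (ENSMUSG00000059743, chr3:89093588-89101959, - strand) encodes farnesyl diphosphate synthase, the last enzyme that the sterol chain shares with ubiquinone, dolichol and protein prenylation. It was at 6.09, 7.94 and 8.03 RPKM at PND2 and at 7.93, 6.67 and 8.18 RPKM at 4 months, with overlap. The log2 fold change was 0.05 (SE 0.16; 95% interval -0.33 to 0.43; limma adjusted p = 0.839). Exons of Fdps also belong to an annotated gene on the same strand, Gm43738, and reads on them cannot be assigned to one of the pair.

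Fdft1 (ENSMUSG00000021273, chr14:63145153-63177793, - strand) encodes squalene synthase, the first enzyme that serves sterols alone. It was at 18.5, 21.3 and 22.4 RPKM at PND2 and at 34.2, 28.4 and 30.3 RPKM at 4 months. No PND2 library reached the lowest 4-month library. The mean rose 1.49-fold, and the log2 fold change was 0.57 (SE 0.12; limma adjusted p = 0.00883). The call held with any 1 library left out, with adjusted p of at most 0.0315. The exons, described further on, did not share this rise evenly.

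Sqle, Lss and Cyp51 carry squalene through its epoxide to lanosterol and the first demethylation, and none passed the test. Sqle (ENSMUSG00000022351, chr15:59315077-59331192, + strand) was at 8.11, 11.7 and 12.0 RPKM at PND2 and at 10.5, 9.78 and 10.8 RPKM at 4 months, all 3 within the PND2 range. Its log2 fold change was -0.01 (SE 0.17; 95% interval -0.41 to 0.39; limma adjusted p = 0.976).

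Lss (ENSMUSG00000033105, chr10:76531588-76557138, + strand), the cyclase gene, had the lowest whole-gene level of the 8 at both ages, at 2.92, 3.86 and 3.74 RPKM at PND2 and at 4.31, 3.81 and 3.50 RPKM at 4 months. The ages overlap. The log2 fold change of Lss was 0.14 (SE 0.19; 95% interval -0.29 to 0.58; limma adjusted p = 0.587). Cyp51 (ENSMUSG00000001467, chr5:4081145-4104746, - strand), the demethylase gene, was at 14.9, 21.1 and 23.2 RPKM at PND2 and at 16.3, 18.8 and 23.3 RPKM at 4 months. The spread within each age of Cyp51 was larger than the difference between them, which was -0.01 on the log2 scale (SE 0.20; 95% interval -0.48 to 0.46; limma adjusted p = 0.972). Under scaling by the median ratio the log2 fold changes of Hmgcs1, Sqle and Cyp51 turned slightly positive and stayed uncalled, and that scaling moved the median of all genes from -0.14 to -0.02.

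Insig1 (ENSMUSG00000045294, chr5:28071363-28078662, + strand), the sterol sensor gene, changed most. It was at 14.0, 16.4 and 20.9 RPKM at PND2 and at 40.7, 44.2 and 35.9 RPKM at 4 months. The lowest 4-month library was well above the highest PND2 library. The mean rose 2.35-fold, from 17.1 ± 3.52 to 40.3 ± 4.15 RPKM (SD, n = 3), which is 1.24 on the log2 scale (SE 0.16; limma adjusted p = 0.00142). With each library left out in turn the log2 fold change lay between 1.11 and 1.40 and the adjusted p was at most 0.00618. Its paralog Insig2, which has the same role in the endoplasmic reticulum, was at 34.0, 31.7 and 29.0 RPKM at PND2 and at 35.8, 35.4 and 35.1 RPKM at 4 months. The log2 fold change of Insig2 was 0.17 (limma adjusted p = 0.203). The ratio of Insig1 to Insig2 was 0.412, 0.516 and 0.721 in the PND2 libraries and 1.14, 1.25 and 1.02 in the 4-month libraries. By gene RPKM Insig1 was thus the lower of the pair at PND2 and the higher at 4 months in every library. Which of the pair was higher rests on the annotated exon lengths used, 3093 bases for Insig1 and 3473 for Insig2.

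The order of the levels therefore differed between the ages mainly by the place of Insig1. At PND2 Hmgcs1 stood first, above Fdft1, Cyp51, Insig1 and Idi1, which lay between means of 20.7 and 15.6 RPKM. Neighbours among those 4 overlapped in their libraries. Sqle, Fdps and Lss followed with no overlap between neighbours, at means of 10.6, 7.35 and 3.51 RPKM. At both ages this order rests on the length of all annotated exons. That length is 5546 bases for Sqle, 4208 for Fdps and 10787 for Lss, longer than their principal transcripts. On the principal transcript at PND2, Sqle was at a mean of 21.1 RPKM before the last exon and 21.0 in it. Fdps was at 20.9 and 15.8 RPKM and Insig1 at 17.5 and 19.7 RPKM. At 4 months Insig1 at 40.3 RPKM and Fdft1 at 30.9 RPKM followed Hmgcs1, each with all libraries above the next gene. Idi1 and Cyp51, at 19.6 and 19.5 RPKM, overlapped. By gene RPKM Hmgcs1 was 15.9 ± 1.10 times the level of Lss at PND2 and 13.7 ± 2.04 times at 4 months (SD, n = 3). That ratio is raised by the length used for Lss. On the principal transcript at PND2, Hmgcs1 was at a mean of 65.4 RPKM before the last exon and 46.45 in it. Lss was at 6.13 and 5.295 RPKM.

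The exon values showed where along a gene the reads changed. Each gene was split on its principal transcript into the last exon and the exons before it, a step added after the data were seen. In the exons before the last, Insig1 was the only gene of the 8 called, at 1.02 on the log2 scale (limma adjusted p = 0.00116) against 1.33 in the last exon (adjusted p = 0.00068). All 5 of its exons were higher at 4 months, by 0.79 to 1.33 on the log2 scale. Its exons before the last were at 14.2, 16.4 and 22.0 RPKM at PND2 and at 36.9, 36.0 and 32.4 RPKM at 4 months. No exon of another gene overlaps the last exon of Insig1. Among 14241 genes fitted in this way, 16.6% were called higher and 26.4% lower.

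**Figure D2:**
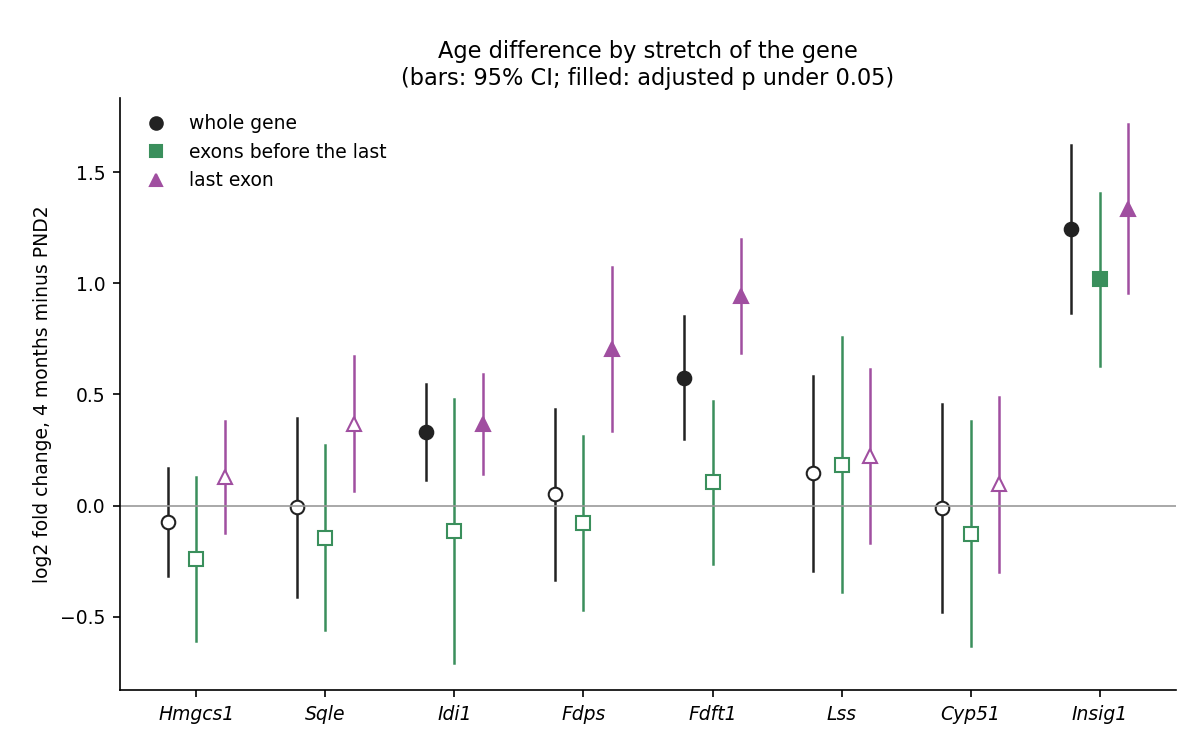
Log2 fold change, 4 months minus PND2 (vertical axis), of each gene (horizontal axis) for the whole gene, the exons before the last and the last exon, with 95% confidence intervals as bars and filled symbols at an adjusted p under 0.05. Insig1 is called in all 3, at 1.24, 1.02 and 1.33, while Fdft1 is at 0.57, 0.10 and 0.94 and is not called in the exons before the last.

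Fdft1 showed the clearest split. Its 7 exons before the last were at 23.4, 31.5 and 32.5 RPKM at PND2 and at 35.6, 29.1 and 28.7 RPKM at 4 months, with overlap. Their log2 fold change was 0.10 (95% interval -0.26 to 0.47; limma adjusted p = 0.641). Its last exon (chr14:63145153-63146968) was at 15.6, 15.5 and 16.7 RPKM at PND2 and at 33.3, 28.0 and 31.2 RPKM at 4 months, which is 0.94 higher on the log2 scale (limma adjusted p = 0.00055). The rise called for the whole gene thus lay in the last exon. That exon is 1816 bases long, 216 of them coding, and 767 bases of it overlap the last exon of Ctsb, the cathepsin B gene, on the opposite strand. Ctsb was at 151, 166 and 183 RPKM at PND2 and at 385, 345 and 377 RPKM at 4 months. Whether the reads were counted by strand is not given in the sources used here, so reads of Ctsb on this exon cannot be told apart from reads of Fdft1.

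The same direction of split, with a higher value in the last exon than before it, was seen in each of the 8 genes, though hardly in Lss. The median over all genes had this direction too. Lss was at 0.19 before the last exon and at 0.22 in it. The ratio of the last exon to the exons before it changed by 0.04 in Lss (limma adjusted p = 0.94), below the median of 0.13 over all genes. Sqle was at -0.14 (limma adjusted p = 0.565) and 0.37 (adjusted p = 0.0581). Fdps was at -0.08 before the last exon (limma adjusted p = 0.749) and at 0.71 in it (adjusted p = 0.0106), and 197 of the 256 bases of that exon are shared with Gm43738. Idi1 was at -0.11 (adjusted p = 0.761) and 0.37 (adjusted p = 0.0195). Its last exon, at 22.9 to 31.8 RPKM, held most of its reads, while the exons before it were between 3.65 and 6.70 RPKM.

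For Hmgcs1 the log2 difference was below 0 in all 9 exons before the last, from -0.54 to -0.06, and above 0 in the last, at 0.13. Cyp51 had the same arrangement, from -0.19 to -0.02 in its 9 exons before the last and 0.10 in the last. For neither gene was the whole stretch before the last exon called, with adjusted p of 0.271 for Hmgcs1 and 0.688 for Cyp51 in limma. That stretch was at -0.24 in Hmgcs1 and -0.13 in Cyp51, against a median of -0.17 over all genes fitted. The last exon of Cyp51 overlaps Akap9 on the opposite strand over 166 bases.

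**Figure D3:**
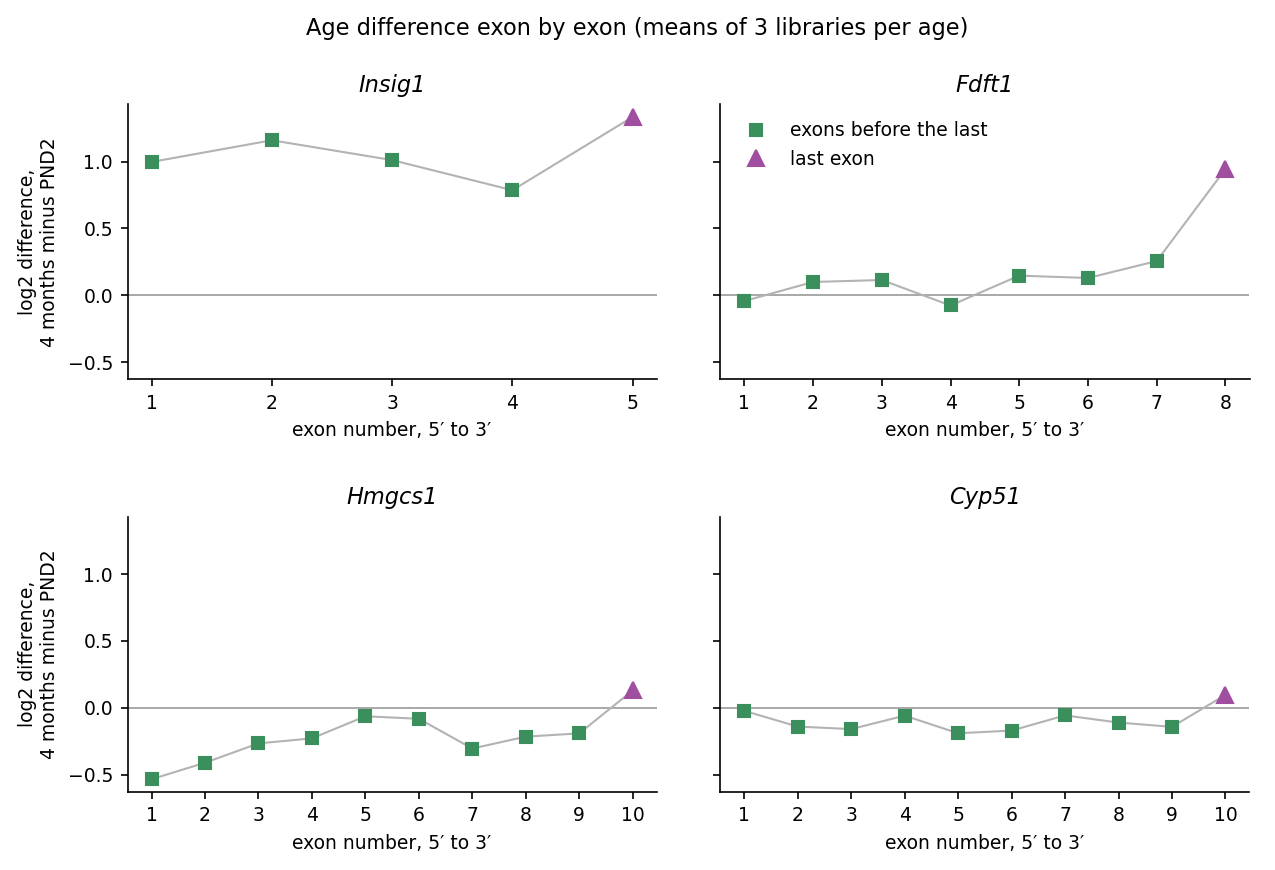
Log2 difference of the mean, 4 months minus PND2 (vertical axis), of each exon in order from 5′ to 3′ (horizontal axis) for Insig1, Fdft1, Hmgcs1 and Cyp51, with triangles for the last exon and squares for the others. All 5 exons of Insig1 lie above 0, whereas Fdft1 leaves 0 clearly at its last exon alone and the 9 earlier exons of Hmgcs1 and Cyp51 lie below 0.

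The balance of last exon to earlier exons also differed across all genes and between libraries. Over 12141 genes the median log2 ratio of the last exon to the exons before it was 0.06, -0.15 and -0.14 in the PND2 libraries and 0.02, 0.04 and 0.12 in the 4-month libraries. The first PND2 library thus stood with the 4-month libraries. The log2 fold change of this ratio between the ages had a median of 0.13 over all genes and of 0.43 over the 8 genes, and it was largest in Fdft1 at 0.84 (limma adjusted p = 0.0771) and Fdps at 0.78 (adjusted p = 0.106). None of the 8 genes was called for it in limma, against 0.56% of all genes called higher and 0.288% lower. At an unadjusted p under 0.05, 4 of the 8 genes and 12.6% of all genes were higher. Without the first PND2 library, the exons before the last of Hmgcs1 were called lower, at -0.43 on the log2 scale (limma adjusted p = 0.0215).

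Within an age the 8 genes varied in part together. After each age was centred on its mean, the correlation between pairs of the 8 genes over 6 libraries had a median of 0.57 and ran from -0.51 to 0.93 in 28 pairs. The pairs share libraries, depth and RNA, so these values are a description. The centred log2 values averaged over the 8 genes were -0.23, 0.07 and 0.15 in the PND2 libraries and 0.00, -0.03 and 0.02 in the 4-month libraries. The largest deviation was that of the first PND2 library, which was the lowest of its age in 7 of the 8 genes and in 46.5% of all genes tested. Sqle followed the mean of the other 7 genes most closely, with r = 0.98, and Idi1 least, with r = 0.11.

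The 10 genes outside the 8 with the most similar centred profile, among 14208 genes with a mean of at least 5 RPKM, were Pacs2, RP24-278I6.1, Mvb12b, Mir7-1, Mrps18b, Uckl1, Stx6, Spcs2, RP23-356A20.1 and Gm2399, with r between 0.994 and 1.00 over 6 libraries. None of them is on the sterol lists. Of the other synthesis enzymes Dhcr7 came highest in this order, at place 202 with r = 0.96. Mvd was at place 501 with r = 0.93. Enzymes of the same list ran down to r = -0.90 in Lbr, at place 13887, with Sc5d at -0.70 and Msmo1 at -0.33.

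The promoters show what the genes share in sequence. RefSeq windows of 250 bases before to 50 bases after the start on GRCm38.p6 matched 5 of the 8 genes, Hmgcs1, Idi1, Lss, Cyp51 and Insig1. The letters TCACNCCA, a form of the sterol regulatory element, were searched on both strands together with CCAAT, the box bound by NF-Y, and GGGCGG, the box bound by Sp1, and no match overlapped another. CCAAT and GGGCGG were found in all 5 windows, against 37.4% and 35.7% of 32851 windows of this length. Of the 5 windows, TCACNCCA was found in that of Hmgcs1 alone, against 4.36% of all windows. Among 15 windows of the other synthesis enzymes, CCAAT was found in 11, GGGCGG in 12 and TCACNCCA in 1. The stretches before both the RefSeq start and the gene start of the files for Hmgcs1 (chr13:119690101-119690350, + strand), the highest gene with no call, and for Insig1 (chr5:28071162-28071362, + strand), the gene that rose most, are shown with the matches of either strand in capitals.
Hmgcs1: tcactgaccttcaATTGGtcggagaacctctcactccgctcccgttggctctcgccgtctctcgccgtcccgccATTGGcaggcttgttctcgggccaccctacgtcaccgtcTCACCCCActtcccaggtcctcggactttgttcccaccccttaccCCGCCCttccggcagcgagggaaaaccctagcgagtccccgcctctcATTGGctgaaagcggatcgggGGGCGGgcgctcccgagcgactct
Insig1: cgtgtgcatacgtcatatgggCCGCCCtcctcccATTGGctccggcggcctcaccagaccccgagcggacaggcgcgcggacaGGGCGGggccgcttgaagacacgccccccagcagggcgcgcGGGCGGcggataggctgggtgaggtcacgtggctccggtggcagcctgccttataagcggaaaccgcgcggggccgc
Distances are counted from the RefSeq start, which is position 119690351 for Hmgcs1 and 28071412 for Insig1 and not the gene start given above. The Hmgcs1 stretch holds TCACCCCA 137 bases before the RefSeq start, 3 CCAAT matches on the opposite strand and 2 GGGCGG matches. The Insig1 stretch holds 1 CCAAT match, 216 bases before the RefSeq start, and 3 GGGCGG matches. A match is a run of letters and does not show that a factor binds there, and a missing match covers this window alone.

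The other 14 synthesis enzymes went both ways. Of these, 3 were higher at 4 months, Acat2, Msmo1 and Sc5d, and 5 were lower, Pmvk, Lbr and Hsd17b7 among them. The other 6 did not pass the test, and the median log2 fold change of the 14 was -0.16. Sc5d, the sterol desaturase gene, was at 15.5, 12.5 and 13.1 RPKM at PND2 and at 24.4, 28.9 and 22.7 RPKM at 4 months, with no overlap. It rose by 0.88 on the log2 scale (SE 0.14; limma adjusted p = 0.00273). Msmo1, the gene of the methyl sterol oxidase that acts soon after Cyp51, was at 10.6, 9.81 and 9.86 RPKM at PND2 and at 15.7, 13.2 and 14.7 RPKM at 4 months, and rose by 0.52 (limma adjusted p = 0.0117).

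The smaller calls depended on the scaling and on single libraries. Lbr, at -0.36, lost the call whichever library was left out, with limma adjusted p of up to 0.0744. Hsd17b7, at -0.45, lost it without any library but PND2 replicate 1, at up to 0.151, and Acat2, at 0.47, without any but 4 months replicate 3, at up to 0.0975. Pmvk, at -0.42, lost it without PND2 replicate 2 or 4 months replicate 2 or 3, at up to 0.0858. Under median scaling 4 of the 14 enzymes were called higher and 2 lower. With the exons before the last 2 were called higher, Msmo1 and Sc5d, and 4 lower, with Pmvk and Lbr among them.

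**Figure D4:**
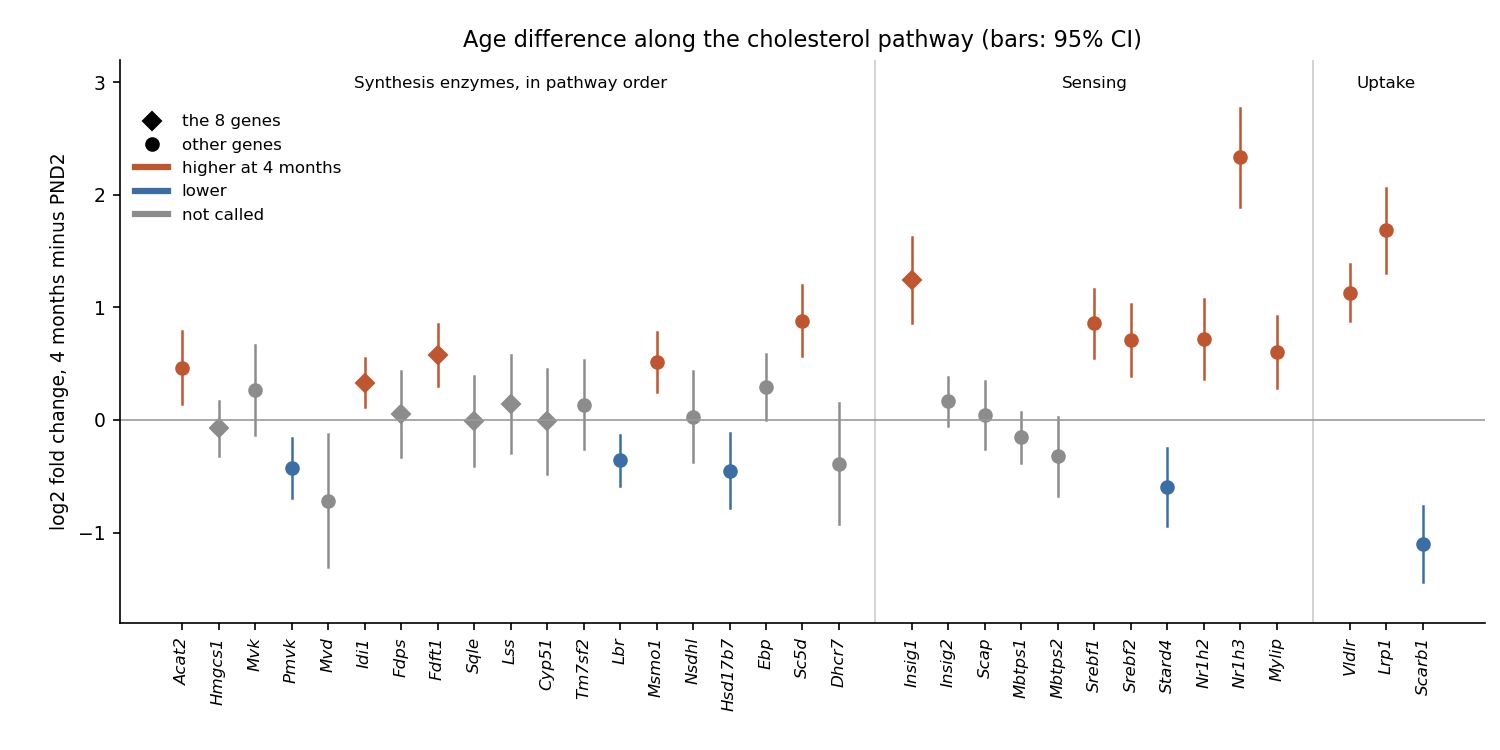
Log2 fold change, 4 months minus PND2 (vertical axis), with 95% confidence intervals as bars, of the synthesis enzymes in pathway order, the genes of sterol sensing and the lipoprotein receptors (horizontal axis), coloured by call, with diamonds for the 8 genes. Insig1 at 1.24 stands with Vldlr at 1.13 and apart from Hmgcs1, Sqle, Lss and Cyp51, which lie between -0.07 and 0.14.

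The genes that sense sterols and regulate the pathway were mostly higher or uncalled. Of 10 tested, 5 were higher, Srebf1, Srebf2, Nr1h2, Nr1h3 and Mylip, and Stard4 was lower in limma. The unequal-variance test per gene called Nr1h3 higher and none of the others. Srebf2, the gene of SREBP2, was at 24.3, 31.3 and 32.0 RPKM at PND2 and at 50.9, 42.2 and 49.7 RPKM at 4 months, which is 0.71 on the log2 scale (limma adjusted p = 0.00693). Scap, which escorts the SREBP proteins to the Golgi, had a log2 fold change of 0.05 (adjusted p = 0.805). The oxysterol receptor gene Nr1h3 rose most, by 2.33 (adjusted p = 0.00021), Srebf1 by 0.86 (adjusted p = 0.00267), Nr1h2 by 0.72 (adjusted p = 0.01) and Mylip, a ubiquitin ligase gene, by 0.60 (adjusted p = 0.0125). Stard4, a sterol carrier gene, fell by 0.60 (adjusted p = 0.0191). That call was lost without PND2 replicate 3 or 4 months replicate 3, at 0.0723 and 0.0622.

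The genes of uptake, storage and efflux went both ways. Vldlr, which encodes a receptor for triglyceride-rich lipoproteins, was at 20.4, 21.2 and 22.4 RPKM at PND2 and at 46.1, 53.0 and 42.3 RPKM at 4 months. The difference was 1.13 on the log2 scale (SE 0.11; limma adjusted p = 0.000418). It was 0.71 in the exons before the last and 1.59 in the last exon (limma adjusted p = 0.00264 and 7.77e-05). Of the 12 genes of uptake, storage and efflux 4 were higher, with Vldlr, Lrp1 at 1.68 and Apoe at 1.24 among them, and 2 were lower, Scarb1 at -1.10 and Soat1, the gene of the enzyme that esterifies cholesterol, at -0.77. The other 6 did not pass the test. All 6 of these calls held under both scalings tried and with the exons before the last.

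The side branches that leave the chain near Fdps and the genes of fatty acid synthesis also went both ways. Among 10 genes of the non-sterol isoprenoid branch, Pdss1 at -0.84 and Rabggtb at -0.49 were lower and Coq2 at 0.44 was higher. The call of Coq2 was lost without PND2 replicate 2 or without 4 months replicate 2 or 3, at adjusted p of 0.0559, 0.068 and 0.0666 in limma. That of Pdss1 was lost without PND2 replicate 3 or 4 months replicate 3, at 0.0506 and 0.0504. Among 11 genes of fatty acid synthesis Scd1, Fads1 and Fads2 were higher and Scd2 was lower, and the call of Fads2 was lost without 4 months replicate 1 or 2, at adjusted p of 0.0645 and 0.0526. None of the 11 was called by the unequal-variance test per gene. In this list the library with the high adipocyte sum stood apart. Fasn was at 226 RPKM in the second 4-month library against 32.7 and 44.5 in the others, and Scd1 at 715 against 66.9 and 123. In that library 2 of the 8 cholesterol genes were the highest of their age, Insig1 and Hmgcs1, and 3 the lowest, Fdft1, Fdps and Sqle. Insig1 was at 44.2 RPKM in it against 40.7 and 35.9 RPKM in the other 4-month libraries. The summed level of the 8 genes was 188 RPKM against 182 and 185. Without that library Insig1 and Fdft1 were called higher and Idi1 was not.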

How the data were processed

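The authors trimmed and filtered paired-end reads of stranded TruSeq libraries, aligned them to mm10 with TopHat2 2.1.0 and used easyRNASeq in R 3.2.2 with the Ensembl annotation to count reads. They deposited RPKM for each gene and each exon, and these RPKM values start the work described here. Whole reads were recovered from RPKM, length and library total (100.0% of values whole within 0.001).

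Gene RPKM of at least 0.1 in 3 libraries was tested as log2(RPKM + 0.1) in limma 3.58.1 (R 4.3.3) with an eBayes trend, two-sided, with Benjamini-Hochberg adjustment over 25903 genes and a threshold of 0.05. Such fold changes understate those of low genes. Exons were split on the principal transcript of GENCODE for 17754 genes, and the ratio was fitted where both stretches had at least 1 RPKM in 3 libraries. The tests were tried on simulated data. Python 3.11.15 with pandas 2.3.3, numpy 2.4.6, scipy 1.17.1 and matplotlib 3.10.9 served for tables and plots. Replicate numbers come from the labels.

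The members and gene lists were chosen with earlier results of these data known. Every one of the 8 genes is named, with Srebf2, Insig2 and Scap and genes of the other lists that passed the test. A few genes of those lists are counted but not reported here by name. Genes most alike were the 10 of highest r with the mean profile of the 8. The study tested log2 RPKM gene by gene with unequal variances, which is an alternative here. The others were 2 pseudocounts, 2 filters, no trend, 2 scalings, voom on the recovered reads, a replicate block and each library left out. The 2 exon stretches were added after the data were seen.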

Additional observations from a re-analysis of the deposited data

How the results depend on the processing

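The 8 genes gave 0 lower calls under each of the 16 alternatives set first and both exon stretches added later. The median log2 fold change of the 8 genes moved with the stretch read. It was -0.10 for the exons before the last and 0.37 for the last exon alone, against -0.17 and -0.02 over all genes fitted. The number called higher was 1, Idi1, with the unequal-variance test per gene, where Insig1 and Fdft1 had adjusted p of 0.0518 and 0.053, and 1 with the exons before the last. It was 2 to 3 with each library left out, 2 without the trend and 4 with the last exon alone. The lost call was Idi1 in the fits that left out a library. Without the trend it was also Idi1, at a limma adjusted p of 0.0596. Idi1 turned to -0.11 in the exons before the last, and the cause was not tested. Genes called in all were 9273, and 3408 with the unequal-variance test, 6123 with the exons before the last and 5485 with the last exon alone, where fewer genes could be fitted. Of the other synthesis enzymes 5 were called lower, and 2 without the trend, 2 under median scaling, 3 under quantile normalization, 0 with the unequal-variance test (5 at an unadjusted p under 0.05) and 2 to 6 with a library left out, the 6 without PND2 replicate 1. A replicate block gave 2 of them lower and 2 of the 8 genes higher, Insig1 and Fdft1, with Idi1 at an adjusted p of 0.087. The block also ended the calls of Acat2, Pmvk, Lbr, Hsd17b7, Stard4, Pdss1 and Fads2, at adjusted p of 0.0521 to 0.1. Same-numbered libraries did not deviate together (r of 0.04, -0.06 and -0.16 over genes), so the numbers were not taken as a pairing. With 3 libraries an age, differences like those of Hmgcs1 or Sqle were not detectable within their intervals.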
